A study of Bos taurus with 33 samples.

Results

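The transcriptomes of cumulus cells (CC) were compared between small and large preovulatory follicles of beef cows. The comparison rests on 12 CC pools, 6 per classification, out of 33 samples in the series, and these are the pools whose labels place them in the small or the large class. The remaining samples were oocyte pools and 5 CC pools of the spontaneous class. Suckled postpartum Hereford-Angus crossbred cows received gonadotropin-releasing hormone (GnRH) on day -9, prostaglandin F2 alpha on day -2 and, in both classifications compared here, GnRH again on day 0, because these cows had not shown estrus. Small follicles measured up to 11.7 mm on day 0 and large follicles 12.7 mm or more. Spontaneous follicles measured 11.7 to 14.0 mm, and their cows showed estrus and received no GnRH on day 0. Cells were aspirated about 23 h after the last GnRH according to the treatment protocol, whereas the stage label reads about 20 h. Every pool combined the CC of 4 complexes, so differences between single follicles within a pool are not visible. The labels do not say whether a cow gave cells to more than 1 pool, and the p-values measure the spread between pools.

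Cumulus cells are the granulosa-lineage cells that surround the oocyte. They take up glucose, break it down by glycolysis to pyruvate and lactate, and pass these on to the oocyte, which uses little glucose itself. After the gonadotropin surge they secrete a matrix of hyaluronan and proteoglycans in which the complex expands. The hypoxia-inducible factor (HIF) is a transcription factor, stabilised at low oxygen, whose textbook targets include glucose transporters and most glycolytic enzymes.

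Abundance is given in CPM, reads per 1000000 reads assigned to genes. Small pools held 1911600 to 5772431 reads on genes (median 3276812) and large pools 2809623 to 5123650 (median 4121436), so that 3 reads, the limit a count of 0 allows, were worth 0.52 to 1.57 CPM, counting error only. Of 16244 genes in the table, 9712 reached 5 CPM in at least 5 CC pools and were tested. The pools matched their label: 13 of 15 cumulus and granulosa cell markers were retained, with a summed level of 4531 to 6599.9 CPM in small pools and 4921 to 8284 in large pools, whereas 4 oocyte markers together reached at most 6.76 CPM. Small replicate 3 stood apart from the other pools. It had the fewest reads, and 44.0% of them fell on the 13 mitochondrially encoded genes, against 12.6 to 31.6% in the other small pools and 14.4 to 28.0% in large pools.

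At a nominal p of 0.01 or less in limma, whose moderated test was run on log2(CPM + 1), 79 of the 9712 transcripts differed between the classifications, which is 0.813%. Of these, 67 (0.69%) were more abundant in large and 12 (0.124%) in small follicles. At this threshold 97.1 calls would be the average if no transcript differed. The number with an adjusted p under 0.05 was 0 in limma (Benjamini-Hochberg), with 388 transcripts (4%) at an unadjusted p under 0.05, and it was 1, GIMAP8, in DESeq2 and in both tests of edgeR. The smallest adjusted p in limma was 0.0674 for GIMAP8, followed by 0.522 for SLC2A1. GIMAP8 passed the filter only through large and spontaneous pools, where it was high. Its adjusted p in limma was 0.535 without a filter, and it was under 0.05 in 7 of 25 settings. Every other transcript named here had an adjusted p of 0.999, so that single calls below are nominal. In CPM, all large pools lay above all small pools in 20 transcripts (0.206%) and all small pools above all large pools in 4 (0.0412%). Such separations and the exact permutation tests below were taken in CPM and were not repeated with other scalings. The plot of fold change against p shows both directions. In pooled cells, more cells of a type and more RNA per cell cannot be told apart.

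**Figure D1:**
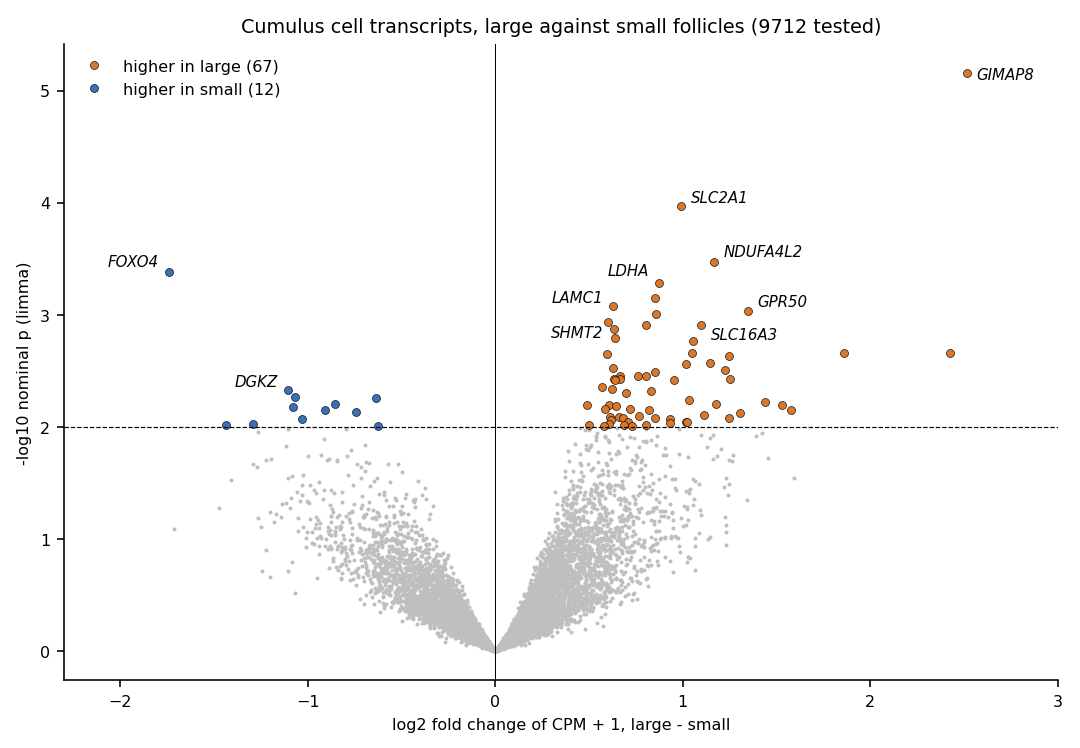
Each point is 1 of 9712 CC transcripts, with the log2 fold change of large over small pools on the horizontal axis and -log10 of the nominal limma p on the vertical axis, and the dashed line marks the threshold. Orange points are the 67 transcripts called higher in large pools and blue points the 12 called higher in small pools, and GIMAP8 lies apart at a log2 fold change of 2.51.

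The direction of the calls moved with the scaling of the libraries. CPM are relative to all reads of a pool, so a pool rich in mitochondrial reads has lower CPM for everything else. In CPM 5442 of 9712 transcripts (56%) had a fold change above 0, with a median log2 fold change of 0.045. The median was -0.010 after rescaling with median-of-ratios size factors and -0.064 in CPM computed without mitochondrially encoded genes. Calls higher in large against higher in small numbered 67 against 12 in CPM, 43 (0.443%) against 26 (0.268%) with median-of-ratios scaling, 44 against 26 with TMM, edgeR's trimmed mean scaling, 27 against 40 without mitochondrial genes, and 61 against 23 when small replicate 3 was left out. The individual fold changes kept their sign, since all 67 and all 12 transcripts pointed the same way with p under 0.05 under median-of-ratios, TMM and without mitochondrial genes. Of the 67, 38 were still called with median-of-ratios scaling, 39 with TMM, 26 without mitochondrial genes, 33 in edgeR's quasi-likelihood test, 42 in its likelihood ratio test and 46 in DESeq2, and of the 12, all 12 with the 3 rescalings and 10, 11 and 10 in the count tests. Among the 37 called transcripts named by the rules given below, 9 lost the call with median-of-ratios scaling. In the count tests 12 lost it in at least 1 and 8 in all 3, as given beside each. These counts leave out the called transcripts picked after their values were seen.

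**Figure D2:**
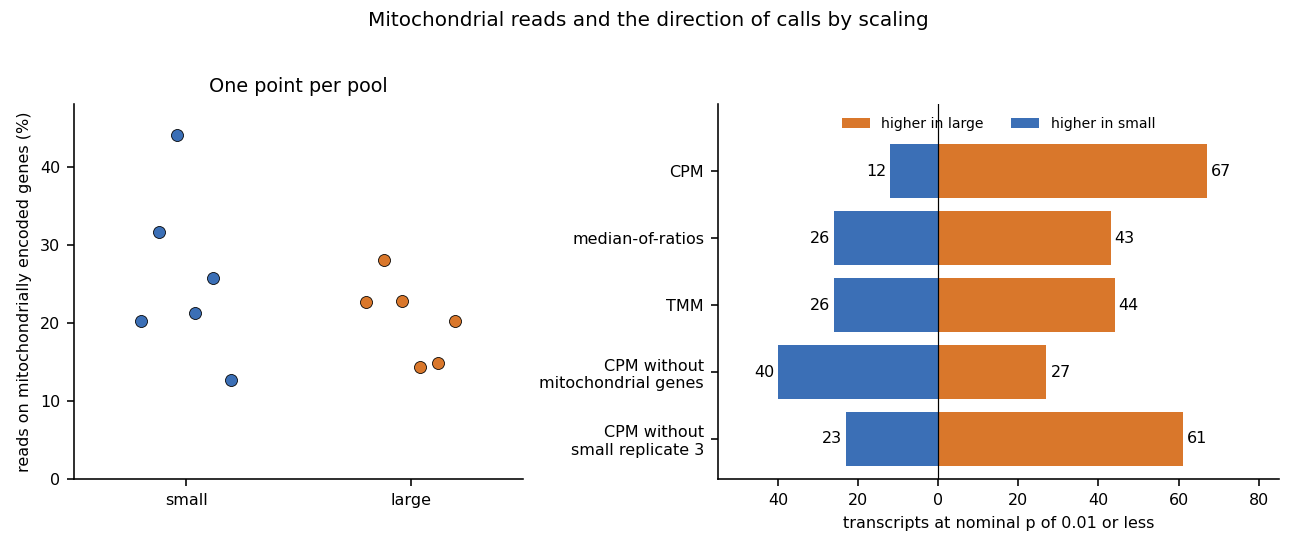
Left, the percentage of reads on mitochondrially encoded genes in each of 6 small and 6 large CC pools, with small replicate 3 highest at 44.0%. Right, the number of transcripts at a nominal p of 0.01 or less that were higher in large (orange, to the right) or small (blue, to the left) pools under each scaling, where the CPM split of 67 to 12 becomes 27 to 40 without mitochondrial genes.

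SLC2A1, SLC2A10 and SLC16A3, which carry glucose into the cell and lactate out of it, were more abundant in CC of large follicles. Of 8 glucose and monocarboxylate transporters tested, 3 were called higher in large pools (against 0.69% of all transcripts) and 0 in small pools. All 8 had a fold change above 0 (against 56% of all). The median log2 fold change was 0.36 (0.30 with median-of-ratios), against 0.045 (-0.010) over all transcripts. SLC2A1 encodes GLUT1, the basal glucose transporter of most cells. It was at 88.9 to 123 CPM in small pools (median 117) and 149.96 to 405 in large pools (median 215). All 6 large pools exceeded all 6 small pools, and large replicate 2 was the highest. The mean was 2.09-fold higher in large pools, with a log2 fold change of 0.99 ± 0.21 (SE; limma, p = 0.000108; exact permutation test, p = 0.00216), the smallest exact p that 6 against 6 pools allow. SLC16A3 encodes MCT4, a monocarboxylate transporter that exports lactate from glycolytic cells. Its level was 19.9 to 69.0 CPM in small pools (median 32.1) and 63.6 to 105 in large pools (median 73.8). The groups overlapped in small replicate 1, at 69.0 CPM, and the other 5 small pools lay below every large pool. In limma the log2 fold change was 1.10 ± 0.29 (SE; limma, p = 0.00124; exact permutation test, p = 0.00866), but the call was lost in the count tests, with p = 0.0182 in edgeR's quasi-likelihood test, 0.0121 in its likelihood ratio test and 0.0101 in DESeq2. SLC2A10, encoding the facilitative transporter GLUT10, was a low transcript with 0.523 to 8.31 CPM in small pools (median 2.75) and 5.09 to 13.3 in large pools (median 9.86). Its log2 fold change of 1.44 ± 0.47 (SE; limma, p = 0.00604; exact permutation test, p = 0.0130) lies on the log2(CPM + 1) scale, which understates the change of low transcripts. The large pools of SLC2A10 alone met the filter of 5 CPM, so its difference is not independent of that filter. That call was lost in 7 of 12 fits, all except those without large replicates 1 and 3 or small replicates 1, 2 and 5 (p from 0.0109 to 0.0164), and in all 3 count tests (p from 0.0116 to 0.0238). SLC16A1, encoding the monocarboxylate transporter MCT1, and BSG, encoding basigin, the chaperone that brings MCT1 and MCT4 to the membrane, were not called, with log2 fold changes of 0.21 ± 0.23 (SE; limma, p = 0.389; exact permutation test, p = 0.277) and 0.30 ± 0.18 (SE; limma, p = 0.109; exact permutation test, p = 0.0974).

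Of the glycolytic enzymes, HK2, GPI, PFKP, TPI1 and LDHA were higher in large follicles. Of 16 enzymes tested, 5 were called higher in large pools (against 0.69% of all transcripts), 0 in small pools, and 11 had p under 0.05 (against 4% of all). The median log2 fold change was 0.52, 0.46 with median-of-ratios scaling and 0.40 without mitochondrial genes, and 14 of 16 enzymes were above 0 in CPM and 13 with median-of-ratios. Over all 9712 transcripts these counts were 5442 and 4722. The study's own transcripts in this group were chosen on these pools, so their direction is not independent evidence. With median-of-ratios scaling only LDHA and PFKP of the 5 remained at p of 0.01 or less. At the level of the whole list, the summed abundance was 4694 to 7951 CPM in small pools and 7718 to 11267 in large pools, and the ranges overlapped slightly. Without small replicate 3, 4 glycolytic enzymes and 2 transporters were called, with medians of 0.55 and 0.33.

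HK2, hexokinase 2, catalyses the step that traps glucose in the cell as glucose 6-phosphate. It was at 77.9 to 100.3 CPM in small pools (median 87.9) and 72.1 to 172 in large pools (median 147). Large replicate 5 lay below every small pool, and the other 5 large pools lay above all of them. This gave a log2 fold change of 0.58 ± 0.20 (SE; limma, p = 0.00975; exact permutation test, p = 0.0152), and the call was lost in 10 of 12 fits, all except those without large replicate 5 or small replicate 6 (p from 0.0125 to 0.0235), and with median-of-ratios scaling (p = 0.0197). GPI, the isomerase of the next step, was at 209.8 to 374 CPM in small pools (median 257) and 315 to 498 in large pools (median 406). Its fold change on the log2 scale was 0.57 ± 0.18 (SE; limma, p = 0.00443; exact permutation test, p = 0.0130), and the call was lost without large replicates 3 and 4 or small replicates 2 and 4 (p from 0.0111 to 0.0140), with median-of-ratios scaling (p = 0.0147) and in all 3 count tests (p from 0.0168 to 0.0239). PFKP, the platelet isoform of phosphofructokinase, which commits sugar to glycolysis, was at 27.7 to 49.0 CPM in small pools (median 36.9) and 38.9 to 75.8 in large pools (median 63.8). The highest 4 large pools were above every small pool. The classes differed by a log2 fold change of 0.66 ± 0.22 (SE; limma, p = 0.00814; exact permutation test, p = 0.0108), and the call was lost in 8 of 12 fits, all except those without large replicates 1 and 4 or small replicates 2 and 6 (p from 0.0128 to 0.0221). The other phosphofructokinase genes, PFKL and PFKM, had log2 fold changes of 0.49 ± 0.23 (SE; limma, p = 0.0476; exact permutation test, p = 0.0476) and 0.85 ± 0.49 (SE; limma, p = 0.1004; exact permutation test, p = 0.277).

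In the later steps, from triose phosphates to lactate, TPI1 and LDHA were called. TPI1, triosephosphate isomerase, was at 421 to 863 CPM in small pools (median 633) and 742 to 1172 in large pools (median 987). Between classes the log2 fold change was 0.63 ± 0.19 (SE; limma, p = 0.00298; exact permutation test, p = 0.00649), and the call was lost without small replicate 4 (p = 0.0105), with median-of-ratios scaling (p = 0.0128) and in all 3 count tests (p from 0.0144 to 0.0239). LDHA, the lactate dehydrogenase subunit that favours the reduction of pyruvate to lactate, was among the most abundant members at 504 to 1238 CPM in small pools (median 884) and 1208 to 1709 in large pools (median 1581). Only small replicate 3, at 1238 CPM, overlapped the lowest large pool. The mean was 1.76-fold higher in large pools and the log2 fold change was 0.88 ± 0.21 (SE; limma, p = 0.000524; exact permutation test, p = 0.00433), although LDHA was not called in edgeR's quasi-likelihood test (p = 0.0147). LDHB, the subunit that favours the reverse reaction, was at 225 to 381 CPM in small pools (median 313) and 231 to 402 in large pools (median 326), with a log2 fold change of 0.040 ± 0.18 (SE; limma, p = 0.825; exact permutation test, p = 0.814). Several enzymes had p between 0.01 and 0.05. GAPDH, which oxidises glyceraldehyde 3-phosphate, had a log2 fold change of 0.54 ± 0.20 (SE; limma, p = 0.0131; exact permutation test, p = 0.0173). PKM, pyruvate kinase, had 0.45 ± 0.17 (SE; limma, p = 0.0173; exact permutation test, p = 0.0152), and ALDOC, the brain-type aldolase, 0.63 ± 0.26 (SE; limma, p = 0.0254; exact permutation test, p = 0.0260). PGK1, phosphoglycerate kinase, and ALDOA, the main aldolase, had 0.49 ± 0.20 (SE; limma, p = 0.0216; exact permutation test, p = 0.0325) and 0.41 ± 0.18 (SE; limma, p = 0.0359; exact permutation test, p = 0.0325). The enolase genes ENO2 and ENO3 were the 2 members below 0, at -0.51 ± 0.36 (SE; limma, p = 0.178; exact permutation test, p = 0.180) and -0.51 ± 0.40 (SE; limma, p = 0.211; exact permutation test, p = 0.165), and both were scarce, with medians of 19.7 and 10.8 CPM for ENO2 in small and large pools and 7.78 and 6.28 for ENO3. Genes such as GAPDH, LDHA and TPI1 have processed pseudogenes, and how reads were shared with such copies is not stated, so their levels are uncertain to that extent.

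**Figure D3:**
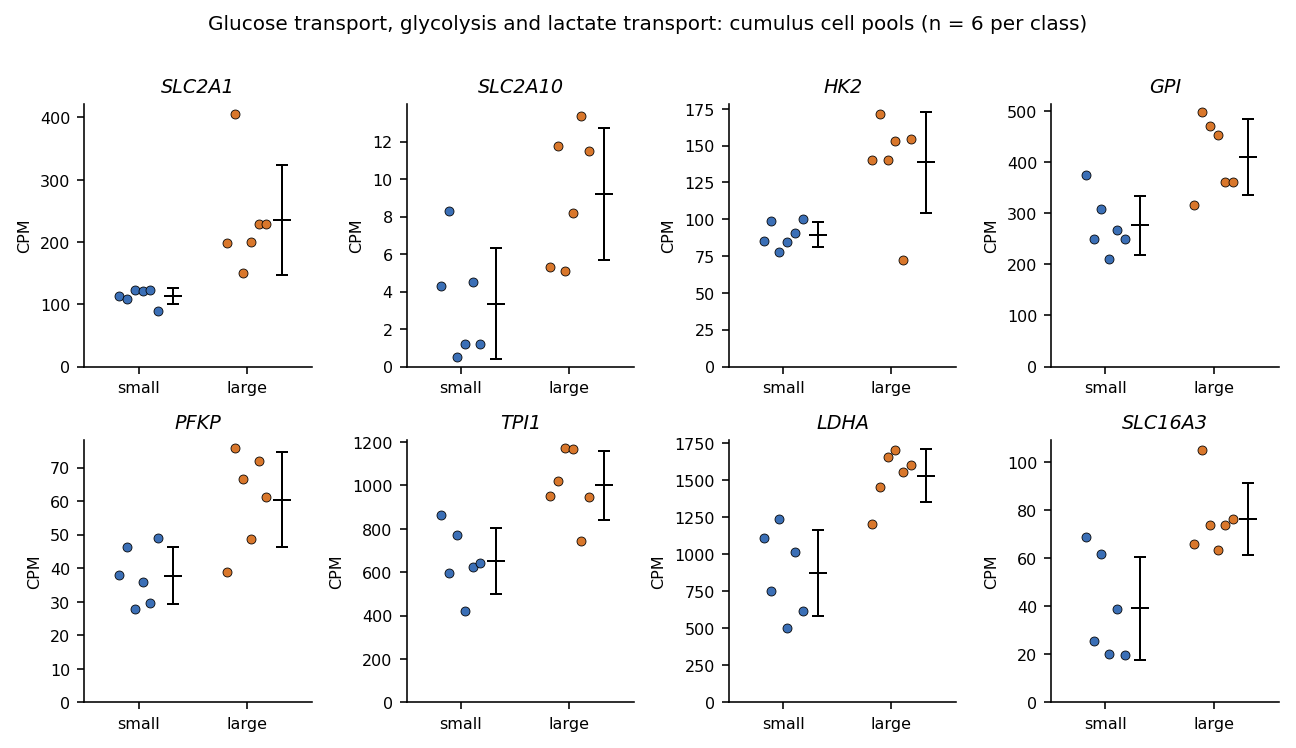
CPM of 8 called transcripts of glucose uptake, glycolysis and lactate export in each of 6 small (blue) and 6 large (orange) CC pools, with axes from 0 and the mean ± SD in black beside the points. The large pools of SLC2A1 all lie above the small pools, whereas HK2 has 1 large pool, replicate 5, at 72.1 CPM below every small pool.

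In the 5 CC pools of spontaneous follicles, from cows in which the surge followed estrus, LDHA was at 1081 to 1712 CPM and SLC2A1 at 143 to 276 CPM. The lowest of these LDHA values lay within the range of the small pools, which reached 1238 CPM. Some called transcripts lay wholly within the range of the small pools there, such as GPR50 at 111 to 287 CPM and GFPT1 at 52.4 to 65.0 CPM. These transcripts were picked, and the spontaneous class was not compared with the others here. In oocyte pools, whose table was scaled separately, the mean CPM of LDHA was 503 ± 108 (SD, n = 6) in small and 456 ± 189 (SD, n = 6) in large follicles.

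Lists of pathways that lead away from or beyond the conversion of glucose to lactate differed in calls. The hexosamine, glycogen and serine lists held called members and are given below. Of 15 regulators of glycolysis and pyruvate entry, 15 citric acid cycle enzymes, 7 pentose phosphate enzymes and 73 nuclear-encoded subunits of the respiratory chain and ATP synthase, 0 passed the threshold in either direction, which is near the 0.813% called over all transcripts. Their median log2 fold changes were 0.13, 0.056, -0.069 and -0.075. H6PD, which catalyses the first pentose phosphate steps in the endoplasmic reticulum and is no member of that list, was singled out after its values were seen. It was at 6.80 to 15.6 CPM in small pools (median 7.65) and 10.7 to 35.2 in large pools (median 20.1), and it was called higher in large pools, with a log2 fold change of 1.02 ± 0.35 (SE; limma, p = 0.00897; exact permutation test, p = 0.0260), and in the 3 count tests, but not with median-of-ratios scaling (p = 0.0106). PDK1, a kinase that inhibits pyruvate dehydrogenase and a textbook HIF target, had a log2 fold change of 0.55 ± 0.22 (SE; limma, p = 0.0207; exact permutation test, p = 0.0260). All 13 mitochondrially encoded protein genes were below 0 (4270 of 9712 over all transcripts) with a median of -0.31, 0 were called, and their median was -0.093 without small replicate 3. COQ10A, which binds coenzyme Q in the mitochondrion, was at 13.1 to 28.9 CPM in small pools (median 19.3) and 6.55 to 15.3 in large pools (median 11.8). In limma its log2 fold change was -0.77 ± 0.29 (SE; limma, p = 0.0161; exact permutation test, p = 0.00866), and it was called with median-of-ratios scaling (p = 0.00544). NDUFA4L2, a paralog of a respiratory chain subunit that is known to rise under low oxygen and to restrain the first respiratory complex, was higher in large follicles. It was at 64.4 to 284 CPM in small pools (median 173) and 272 to 499 in large pools (median 335), with overlap of a single pair of pools, and its log2 fold change was 1.17 ± 0.27 (SE; limma, p = 0.000338; exact permutation test, p = 0.00433).

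Among targets of HIF outside glycolysis, PLOD2 and BNIP3 were higher in large follicles. All 16 of 16 tested members had a fold change above 0 in CPM and with median-of-ratios scaling, and 14 without mitochondrial genes. Over all transcripts these counts were 5442 and 4722 of 9712 and 3997 of 9699. The median log2 fold change of the list was 0.51, and 0.45 with median-of-ratios. PLOD2 and BNIP3 were its only calls (0.69% of all transcripts were called higher in large), and with median-of-ratios 0 were called. Without small replicate 3 there were 4 calls and a median of 0.47. PLOD2, a lysyl hydroxylase that prepares collagen for crosslinking, was at 143 to 285 CPM in small pools (median 245) and 277 to 481 in large pools (median 362). On the log2 scale the fold change was 0.67 ± 0.20 (SE; limma, p = 0.00352; exact permutation test, p = 0.00866), and the call was lost without large replicate 1 or small replicate 4 (p from 0.0114 to 0.0117), with median-of-ratios scaling (p = 0.0161) and in all 3 count tests (p from 0.0178 to 0.0259). BNIP3, a mitochondrial outer membrane protein that marks mitochondria for autophagy, was at 87.1 to 253 CPM in small pools (median 168) and 122 to 511 in large pools (median 296). Large replicate 5, at 122 CPM, lay within the small range and the other 5 large pools above it. In limma the log2 fold change was 0.85 ± 0.29 (SE; limma, p = 0.00831; exact permutation test, p = 0.0325), and the call was lost in 8 of 12 fits, all except those without large replicate 5 or small replicates 1, 2 and 3 (p from 0.0136 to 0.0264), with median-of-ratios scaling (p = 0.0239) and in all 3 count tests (p from 0.0110 to 0.0227). P4HA1 and P4HA2, the catalytic subunits of collagen prolyl hydroxylase, had log2 fold changes of 0.50 ± 0.18 (SE; limma, p = 0.0107; exact permutation test, p = 0.0216) and 0.48 ± 0.18 (SE; limma, p = 0.0157; exact permutation test, p = 0.0281). EGLN3, a prolyl hydroxylase that marks HIF for degradation, had 1.07 ± 0.46 (SE; limma, p = 0.0307; exact permutation test, p = 0.0823). The transcript of HIF1A itself was abundant in both classes, with 2568 to 6460.2 CPM in small pools (median 4386) and 4084 to 5366 in large pools (median 4847). Its log2 fold change was 0.098 ± 0.21 (SE; limma, p = 0.651; exact permutation test, p = 0.779), and it was below 0 without mitochondrial genes or without small replicate 3. EPAS1, encoding the alternative HIF alpha subunit, had a log2 fold change of 0.61 ± 0.33 (SE; limma, p = 0.0819; exact permutation test, p = 0.316). The abundance of a transcript does not measure the HIF protein.

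**Figure D4:**
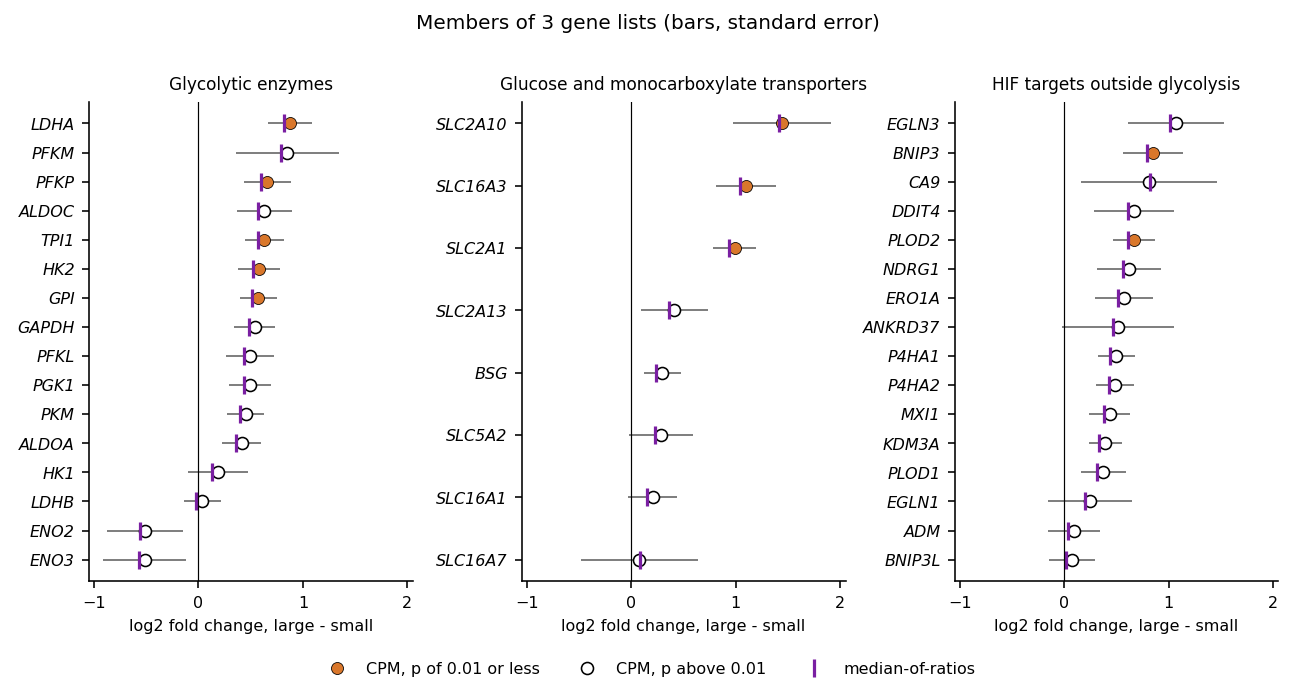
Log2 fold change of large over small CC pools for each tested glycolytic enzyme (16), glucose or monocarboxylate transporter (8) and HIF target outside glycolysis (16), with bars of 1 standard error, filled points for p of 0.01 or less and purple ticks for median-of-ratios scaling. Nearly all points lie right of 0, and rescaling moves nearly every point slightly to the left, with ENO2 and ENO3 as the 2 points left of 0.

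Of enzymes that draw on glycolytic intermediates, 1 hexosamine, 2 glycogen and 1 serine and one-carbon member were called (0.69% of all transcripts were called higher in large pools). GFPT1, the rate-limiting enzyme of the hexosamine pathway that supplies sugar for hyaluronan, was at 29.8 to 89.6 CPM in small pools (median 54.5) and 77.9 to 119 in large pools (median 85.1), with a log2 fold change of 0.76 ± 0.23 (SE; limma, p = 0.00348; exact permutation test, p = 0.0108) (call lost without large replicate 6 (p = 0.0110)). It was the only called member among 9 hexosamine and hyaluronan-precursor enzymes, whose median was 0.22. GFPT2, which catalyses the same reaction, did not pass the threshold. GBE1, the glycogen branching enzyme, was at 58.6 to 91.7 CPM in small pools (median 71.9) and 84.7 to 168 in large pools (median 114) and GYS1, glycogen synthase, at 8.84 to 61.3 CPM in small pools (median 39.9) and 46.8 to 172 in large pools (median 68.4). Their log2 fold changes were 0.64 ± 0.20 (SE; limma, p = 0.00384; exact permutation test, p = 0.00649) and 1.11 ± 0.38 (SE; limma, p = 0.00779; exact permutation test, p = 0.0152). The call of GBE1 was lost without large replicates 2 and 4 or small replicate 2 (p from 0.0101 to 0.0104) and that of GYS1 without large replicates 2, 3, 4 and 6 or small replicates 4 and 6 (p from 0.0114 to 0.0245), with median-of-ratios scaling and in both edgeR tests (p from 0.0125 to 0.0207). In GYS1, large replicate 2 was far above the others. They were the called members of 8 glycogen enzymes (median 0.34). SHMT2, the mitochondrial serine hydroxymethyltransferase that feeds one-carbon units from serine, was at 85.9 to 131 CPM in small pools (median 118) and 152 to 199.7 in large pools (median 165). In CPM, but not with median-of-ratios scaling, all large pools exceeded all small pools, and the log2 fold change was 0.63 ± 0.17 (SE; limma, p = 0.00135; exact permutation test, p = 0.00216). Of 14 serine and one-carbon enzymes SHMT2 alone was called, and the median was 0.019. SLC38A1, a sodium-coupled glutamine transporter, was at 76.7 to 159 CPM in small pools (median 117) and 121 to 231 in large pools (median 177), with a log2 fold change of 0.61 ± 0.21 (SE; limma, p = 0.00812; exact permutation test, p = 0.0173). That call was lost in 8 of 12 fits, all except those without large replicate 3 or small replicates 2, 4 and 6 (p from 0.0122 to 0.0265), with median-of-ratios scaling and in all 3 count tests (p from 0.0161 to 0.0197), and it was the single call among 18 amino acid transporters.

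Among proteins of the matrix, VCAN, LAMC1 and COL11A1 were higher in large follicles. VCAN encodes versican, the large proteoglycan of the expanding cumulus, and was one of the most abundant transcripts at 8357 to 17839 CPM in small pools (median 12815) and 15551 to 28109 in large pools (median 19736). Small replicates and large replicates overlapped only between 15551 and 17839 CPM. This gave a log2 fold change of 0.71 ± 0.25 (SE; limma, p = 0.00912; exact permutation test, p = 0.00649), and the call was lost in 8 of 12 fits, all except those without large replicates 2 and 3 or small replicates 4 and 6 (p from 0.0115 to 0.0284) and with median-of-ratios scaling (p = 0.0196). The other tested members of the expansion matrix were not called. HAS2, hyaluronan synthase, was at 19.4 to 146 CPM in small pools (median 43.8) and 41.5 to 134 in large pools (median 64.3) and had a log2 fold change of 0.58 ± 0.37 (SE; limma, p = 0.128; exact permutation test, p = 0.442). PTX3 and TNFAIP6, which crosslink hyaluronan, had log2 fold changes of -0.17 ± 0.53 (SE; limma, p = 0.758; exact permutation test, p = 0.985) and 0.043 ± 0.25 (SE; limma, p = 0.867; exact permutation test, p = 0.818), and neither kept its sign under every setting. LAMC1, a laminin chain of basement membranes, was at 223 to 359.99 CPM in small pools (median 269.5) and 377 to 464 in large pools (median 455), with every large pool above every small pool and a log2 fold change of 0.63 ± 0.16 (SE; limma, p = 0.000841; exact permutation test, p = 0.00216). COL11A1, a fibrillar collagen chain, was a low transcript at 0.616 to 5.02 CPM in small pools (median 1.81) and 3.56 to 11.8 in large pools (median 7.36). The small median of COL11A1 lay below the filter of 5 CPM, so its difference is not independent of that filter. Its fold change on the log2 scale was 1.31 ± 0.44 (SE; limma, p = 0.00757; exact permutation test, p = 0.0108), and the call was lost in 8 of 12 fits, all except those without large replicates 3 and 6 or small replicates 4 and 6 (p from 0.0112 to 0.0243). Of 26 collagen, laminin and basement membrane genes 19 were above 0 (against 56% of all transcripts), with a median of 0.25 and 2 calls. Without small replicate 3 the median was 0.063, against -0.039 over all transcripts, and 1 member was called. COL1A1 and HSPG2, the basement membrane proteoglycan perlecan, had log2 fold changes of 0.77 ± 0.29 (SE; limma, p = 0.0150; exact permutation test, p = 0.0260) and 0.79 ± 0.29 (SE; limma, p = 0.0133; exact permutation test, p = 0.0779). COL1A1 is also one of 8 tested theca and stroma markers, whose summed level was 545 to 1661 CPM in small pools and 842 to 1491 in large pools, and their part in the result was not tested.

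Listed transcripts of the response to the gonadotropin surge were 14 immediate-early and surge-induced transcription factors and 7 genes of epidermal growth factor-like and prostaglandin signalling. Their medians were -0.063 and -0.025, and 0 passed the threshold. Without small replicate 3 the medians were -0.23 and -0.057, against -0.039 over all transcripts, and 0 were called. Over all transcripts 0.813% were called, so 0 in lists of this size does not show an unchanged response. PTGS2, the inducible cyclooxygenase of prostaglandin synthesis, was at 650.2 to 3053 CPM in small pools (median 2056) and 153 to 4167 in large pools (median 1527), with a log2 fold change of -0.44 ± 0.56 (SE; limma, p = 0.441; exact permutation test, p = 0.838). INHBA, the activin beta A subunit, was at 244 to 1037 CPM in small pools (median 310.00) and 341 to 1022 in large pools (median 490.2), and its log2 fold change was 0.48 ± 0.30 (SE; limma, p = 0.129; exact permutation test, p = 0.442). FSHR, the receptor for follicle-stimulating hormone, was at 21.5 to 148 CPM in small pools (median 42.5) and 13.9 to 71.6 in large pools (median 51.1), and its log2 fold change was -0.099 ± 0.45 (SE; limma, p = 0.826; exact permutation test, p = 0.665). These ranges were wider within each class than the difference between classes. PDE5A, a phosphodiesterase that degrades cyclic GMP, the nucleotide that CC pass to the oocyte to hold meiosis, was called. It was at 79.9 to 217 CPM in small pools (median 154) and 166 to 464 in large pools (median 258). The classes differed by a log2 fold change of 0.85 ± 0.25 (SE; limma, p = 0.00321; exact permutation test, p = 0.0130), and the call was lost without large replicate 6 or small replicate 4 (p from 0.0103 to 0.0119), with median-of-ratios scaling (p = 0.0105) and in edgeR's quasi-likelihood test (p = 0.0129). It was the only called member of 14 genes of gonadotropin receptors and cyclic nucleotide control.

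In steroid metabolism HSD17B1 was the only called member of 17 enzymes (0.69% of all transcripts were called higher in large pools). HSD17B1, the granulosa enzyme that converts estrone to estradiol, was at 10.05 to 30.4 CPM in small pools (median 14.9) and 22.2 to 60.5 in large pools (median 31.9). The mean was 2.15-fold higher in large pools, the log2 fold change was 1.05 ± 0.30 (SE; limma, p = 0.00219; exact permutation test, p = 0.0108), and it was called in all 12 fits that left out 1 pool. CYP19A1, the aromatase that makes estrogen, was low in both classes, at 0.520 to 21.0 CPM in small pools (median 5.53) and 0 to 6.76 in large pools (median 3.76), and the log2 fold change was -0.82 ± 0.65 (SE; limma, p = 0.222; exact permutation test, p = 0.320). STAR, which brings cholesterol to the side-chain cleavage enzyme, and CYP11A1, that enzyme, had log2 fold changes of 0.65 ± 0.58 (SE; limma, p = 0.272; exact permutation test, p = 0.316) and -0.017 ± 0.40 (SE; limma, p = 0.967; exact permutation test, p = 0.606). In cholesterol synthesis and uptake 22 of 23 members were above 0 in CPM, 20 with median-of-ratios and 18 without mitochondrial genes. Over all transcripts these counts were 5442 and 4722 of 9712 and 3997 of 9699. The list had a median of 0.27, and 0 of its members were called, near the 0.813% called over all transcripts. HMGCS1 and SQLE, enzymes of the early and middle pathway, had log2 fold changes of 0.61 ± 0.28 (SE; limma, p = 0.0387; exact permutation test, p = 0.193) and 0.61 ± 0.26 (SE; limma, p = 0.0326; exact permutation test, p = 0.0931).

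The transcript with the smallest p, GIMAP8, encodes a GTPase of a family best known from lymphocytes. It was at 1.52 to 3.14 CPM in small pools (median 2.77) and 7.47 to 44.3 in large pools (median 24.6), and every large pool exceeded every small pool. No small pool reached the 5 CPM of the filter, so GIMAP8 entered the test only through the large and spontaneous pools, where it was high. Its separation of the classes is therefore not independent of the filter. The level rested on 58 reads over the small and 569 over the large pools. Between classes the log2 fold change was 2.51 ± 0.42 (SE; limma, p = 6.94e-06; exact permutation test, p = 0.00216), and 13.0 to 47.2 CPM were found in spontaneous pools. GIMAP8 was called in all 12 fits that left out 1 pool, and its adjusted p was under 0.05 in 2 of them. It was the only gene of its family with a row in the table. Lymphoid white blood cell markers summed to 1.84 to 16.2 CPM in small pools and 3.98 to 40.2 in large pools, and 0 of 14 were abundant enough to be tested. Myeloid markers summed to 49.99 to 203 CPM in small pools and 49.8 to 248 in large pools, with 0 of 11 called. Endothelium markers summed to 14.6 to 75.0 CPM in small pools and 7.38 to 36.2 in large pools. PTPRC, the leukocyte common antigen, was at 2.45 to 19.4 CPM in small pools (median 8.11) and 1.14 to 24.4 in large pools (median 4.04), with a log2 fold change of -0.62 ± 0.54 (SE; limma, p = 0.265; exact permutation test, p = 0.619). The part of these cells in the level of GIMAP8 was not tested.

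Several other transcripts higher in large follicles encode signalling and matrix-binding proteins. GPR50, an orphan receptor related to the melatonin receptors, was at 86.5 to 399 CPM in small pools (median 157) and 243 to 875 in large pools (median 455). Large replicate 5 was the highest, and the log2 fold change was 1.35 ± 0.35 (SE; limma, p = 0.000919; exact permutation test, p = 0.0173). LTBP1, which stores latent transforming growth factor beta in the matrix, was at 459.8 to 1206 CPM in small pools (median 773) and 1065 to 1943 in large pools (median 1296), with a log2 fold change of 0.86 ± 0.22 (SE; limma, p = 0.000988; exact permutation test, p = 0.00649). CHST11, a sulfotransferase that builds chondroitin sulfate, the sugar chain carried by versican, was at 129.96 to 169.9 CPM in small pools (median 149) and 191 to 278 in large pools (median 224). In CPM, but not with median-of-ratios scaling, all large pools exceeded all small pools, and the log2 fold change was 0.60 ± 0.16 (SE; limma, p = 0.00117; exact permutation test, p = 0.00216). ARHGAP31, a GTPase-activating protein, had a log2 fold change of 0.85 ± 0.21 (SE; limma, p = 0.000712; exact permutation test, p = 0.00433), and BTRC, the substrate receptor of an SCF ubiquitin ligase, 0.81 ± 0.21 (SE; limma, p = 0.00124; exact permutation test, p = 0.00866). These 5 were called in each of the 12 fits that left out 1 pool and with median-of-ratios scaling, and all except GPR50 in the 3 count tests. The call of GPR50 was lost in all 3 (p from 0.0150 in edgeR's likelihood ratio test to 0.0437 in DESeq2).

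The 12 transcripts higher in small follicles included no member of a pathway list. FOXO4, a forkhead transcription factor held out of the nucleus by growth factor signalling, had the smallest p. It was at 5.83 to 16.7 CPM in small pools (median 10.4) and 0.852 to 5.86 in large pools (median 2.06). A single pair of pools overlapped, the mean was 4.01-fold higher in small pools, and the log2 fold change was -1.74 ± 0.41 (SE; limma, p = 0.000414; exact permutation test, p = 0.00433). Without the small pools, where it was high, FOXO4 would not have met the filter of 5 CPM. Its separation of the classes is therefore not independent of the filter. The level rested on 253 reads over the small and 68 over the large pools. SMDT1, a subunit of the mitochondrial calcium uniporter, was at 49.2 to 74.7 CPM in small pools (median 57.6) and 30.7 to 47.6 in large pools (median 35.1). All small pools exceeded all large pools, with a log2 fold change of -0.64 ± 0.20 (SE; limma, p = 0.00551; exact permutation test, p = 0.00216) (call lost without large replicates 2, 5 and 6 or small replicates 1, 2 and 5 (p from 0.0106 to 0.0187)). CEP70, a centrosomal protein, did not overlap either, at 26.8 to 43.6 CPM in small pools (median 28.8) and 11.6 to 26.5 in large pools (median 19.3). In limma its log2 fold change was -0.74 ± 0.25 (SE; limma, p = 0.00738; exact permutation test, p = 0.00216), and the call was lost in 7 of 12 fits, all except those without large replicates 1, 2 and 4 or small replicates 3 and 6 (p from 0.0101 to 0.0242). SCG2, a secretogranin of dense-core vesicles, was at 21.4 to 56.5 CPM in small pools (median 42.4) and 7.12 to 36.7 in large pools (median 20.9). Its log2 fold change was -1.08 ± 0.36 (SE; limma, p = 0.00664; exact permutation test, p = 0.0173), and the call was lost in 8 of 12 fits, all except those without large replicates 3, 5 and 6 or small replicate 3 (p from 0.0109 to 0.0206). PLAC9, a small secreted protein, was at 40.9 to 65.8 CPM in small pools (median 45.6) and 14.2 to 48.5 in large pools (median 25.1) and had a log2 fold change of -0.85 ± 0.28 (SE; limma, p = 0.00625; exact permutation test, p = 0.0303) (call lost without large replicates 1, 2, 3 and 5 or small replicates 4 and 6 (p from 0.0109 to 0.0181)).

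The remaining named transcripts of this direction act in RNA and lipid metabolism. POLR3F, a subunit of RNA polymerase III, was at 23.0 to 99.6 CPM in small pools (median 53.4) and 11.3 to 37.9 in large pools (median 28.6), with a log2 fold change of -1.07 ± 0.34 (SE; limma, p = 0.00536; exact permutation test, p = 0.0173). WDR12, a ribosome assembly factor, was at 15.6 to 44.0 CPM in small pools (median 21.1) and 7.90 to 16.8 in large pools (median 12.3), with a log2 fold change of -0.91 ± 0.30 (SE; limma, p = 0.00704; exact permutation test, p = 0.00433). TRMT5, which methylates transfer RNA, was at 11.5 to 31.6 CPM in small pools (median 16.5) and 4.54 to 14.4 in large pools (median 7.76), with a log2 fold change of -1.03 ± 0.35 (SE; limma, p = 0.00858; exact permutation test, p = 0.0173). Of 75 cytosolic ribosomal protein genes 0 were called, near the 0.813% called over all transcripts, and their median log2 fold change was -0.0058. DGKZ, a diacylglycerol kinase, was at 7.08 to 19.2 CPM in small pools (median 11.4) and 2.56 to 7.18 in large pools (median 4.73), with a log2 fold change of -1.11 ± 0.35 (SE; limma, p = 0.00473; exact permutation test, p = 0.00433). STARD5, a sterol-binding protein, was listed at 0 in 1 large pool and was otherwise low, at 5.02 to 9.51 CPM in small pools (median 7.79) and 0 to 6.41 in large pools (median 2.77), with a log2 fold change of -1.29 ± 0.45 (SE; limma, p = 0.00952; exact permutation test, p = 0.00433). For DGKZ and STARD5 the small pools alone met the filter, while both large medians lay below it. These differences are therefore not independent of the filter. The call of POLR3F was lost without large replicates 1 and 6 or small replicates 1, 4, 5 and 6 (p from 0.0102 to 0.0179), of WDR12 without large replicates 2, 3 and 6 or small replicates 1, 2 and 6 (p from 0.0140 to 0.0230) and of TRMT5 in 8 of 12 fits, all except those without large replicates 1 and 4 or small replicates 2 and 3 (p from 0.0127 to 0.0270). The call of DGKZ was lost without large replicate 5 or small replicates 1 and 6 (p from 0.0103 to 0.0145) and that of STARD5 in 10 of 12 fits, all except those without large replicate 2 or small replicate 6 (p from 0.0105 to 0.0216). With median-of-ratios scaling all of them were called, and STARD5 was not called in DESeq2 or in edgeR's quasi-likelihood test (p from 0.0107 to 0.0317).

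**Figure D5:**
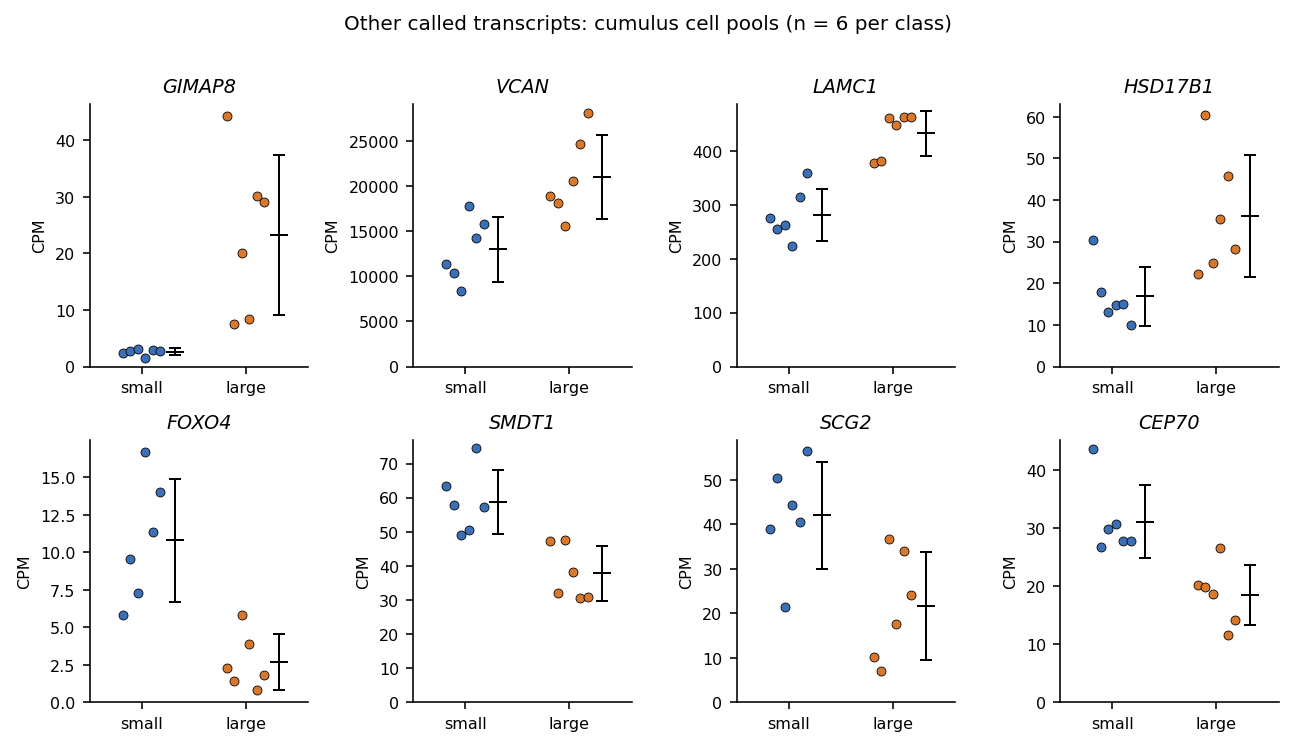
CPM of GIMAP8, VCAN, LAMC1 and HSD17B1, called higher in large pools, and of FOXO4, SMDT1, SCG2 and CEP70, called higher in small pools, in each of 6 small (blue) and 6 large (orange) CC pools, with axes from 0 and the mean ± SD in black. GIMAP8 and LAMC1 separate the classes with every large pool above, and SMDT1 and CEP70 with every small pool above, whereas the points of the other 4 transcripts overlap.

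FGF11, a fibroblast growth factor homologue that stays inside the cell, was barely detected, at 0 to 1.84 CPM in small pools (median 0.945) and 0 to 31.7 in large pools (median 4.36). On the log2 scale the fold change was 1.59 ± 0.67 (SE; limma, p = 0.0284; exact permutation test, p = 0.0390), and it was not called in limma, whereas it was called in DESeq2 (p = 0.000396) and both edgeR tests. The mean of the large pools was 9.33-fold that of the small pools, 4.21-fold without large replicate 2, and without that pool the log2 fold change was 1.07. The level rested on 20 reads over the small and 178 over the large pools. No small pool reached 5 CPM, so FGF11 too entered the test only through pools of the other classes.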

How the data were processed

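Total RNA of the pools was amplified to cDNA and sequenced. The authors filtered the reads, aligned them with Hisat2 (build UMD3.1), counted them on genes with featureCounts and deposited CPM, scaled to the reads on genes. How strand was treated is not given in the sources used here. Whole reads could be recovered for 100% of the values (within 0.05 reads), and 0 columns were unmatched. Symbols came from the table or, for 60 and 46 tested transcripts, from RefSeq accessions and gene names (annotation of assembly ARS-UCD2.0, names only), and 964 tested transcripts had no symbol. No coordinates were used.

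A transcript had to reach 5 CPM in 5 or more CC pools. Abundance was then compared with limma's moderated test with a mean-variance trend on log2(CPM + 1), two-sided, small against large, without covariates. The call was a nominal p of 0.01 or less, and Benjamini-Hochberg adjusted p-values were read at 0.05. An exact permutation test of the difference between mean CPM was added for each named transcript over all splits of 6 against 6 pools and two-sided, with 0.00216 as its smallest p. The study tested counts with edgeR and DESeq2, which were run here on the recovered reads as alternatives. Also tried were median-of-ratios or TMM (trimmed mean of M values) scaling, CPM without mitochondrially encoded genes, a pseudocount of 0.1, a filter on the mean (1 CPM) or none, a joint fit of all 3 classifications, a block for the replicate number, and fits that each left out 1 pool. Same-numbered pools correlated between -0.16 and 0.22 in their deviations, so the numbers were not taken as pairs. No pools agreed within sampling noise. The tests were tried on simulated data.

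The genes named are those that the study names for this comparison, the 10 transcripts with the smallest p in each direction, list members called and a few key members of 29 pathway and 9 marker lists. Values of 2 such key members are not reported here. Members and lists were chosen with earlier results of these data known. R 4.3.3, limma 3.58.1, edgeR 4.0.16, DESeq2 1.42.0, Python 3.11.15, pandas 2.3.3 and matplotlib 3.10.9 were used.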

Additional observations from a re-analysis of the deposited data

Results flagged for a closer look

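In 15 of 112 groups of 6 pools tested for a pool far from the others (Dixon's criterion at 95%), 1 pool stood out, and chance flags about 1 group in 20. Large replicate 2 was the highest large pool for SLC2A1 (405 CPM, next pool 229.6), SLC16A3 (105.0, next 76.5), GYS1 (172, next 72.7), FGF11 (31.7, next 8.59) and EREG, an epidermal growth factor-like ligand (12.1, next 0.586). Large replicate 5 was highest for GPR50 (875 CPM, next 472) and lowest for HK2 (72.1, next 140.0). Large replicate 6 was highest for INHBA (1022 CPM, next 554) and PTPRC (24.4, next 6.95), and large replicate 4 for TNFAIP6 (3024, next 1302). Among small pools, replicate 6 was highest for WDR12 (44.0 CPM, next 23.9) and HAS2 (146, next 50.5), replicate 4 for INHBA (1037, next 377) and CYP19A1 (21.0, next 7.39), and replicate 1 for CEP70 (43.6, next 30.7).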

How the results depend on the processing

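The median log2 fold change of glycolytic enzymes stayed above 0 in every alternative run, from 0.40 without mitochondrially encoded genes to 0.57 without 1 pool (0.41 to 0.57 over the fits leaving out a pool). The count of 79 calls (67 higher in large, 12 higher in small) was 52 to 114 when 1 pool was left out (46 to 107 and 4 to 23), with 52 without small replicate 5, 107 higher in large without small replicate 6, 23 higher in small without small replicate 3, and 4 to 7 without large replicate 6 or small replicate 1, 2, 4, 5 or 6. All 3 classifications in one fit gave 137 calls (111 and 26). Calls higher in large and in small numbered 44 and 26 with TMM, 43 and 26 with median-of-ratios scaling, 27 and 40 without mitochondrially encoded genes, and 44 and 19 in edgeR's quasi-likelihood test. The count higher in small was 37 in DESeq2, 35 in edgeR's likelihood ratio test, 31 in both and 25 without a filter. Transcripts with an adjusted p under 0.05 numbered 0 to 1 when a pool was left out (1 without large replicate 2 or 4), and 1 in DESeq2, both edgeR tests, the likelihood ratio test with DESeq2 and the fit of all 3 classifications.

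With the replicate number as a block, 96 transcripts were called (87 and 9), 60 of them shared with the 79. Only small replicate 2 correlated best with the large pool of its own number.

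Among transcripts not called, the log2 fold change of HIF1A was -0.016 without mitochondrially encoded genes and -0.057 to 0.21 over the fits leaving out a pool. TNFAIP6 was at -0.013 with TMM, -0.015 with median-of-ratios scaling, -0.070 without mitochondrially encoded genes and -0.19 to 0.18. CYP11A1 was at 0.17 in DESeq2, in edgeR's likelihood ratio test and in both, 0.18 in the quasi-likelihood test and -0.25 to 0.24. PTGS2 ranged from -0.79 to 0.16, PTX3 from -0.63 to 0.11 and FSHR from -0.31 to 0.23. The cause of these changes was not tested. Depth limits low transcripts most: at 5 CPM a small pool of 1911600 reads holds few reads. The planned description of promoter motifs was not run, as promoter sequences were not used here.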

Other observations

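Interferon-stimulated genes ranged widely between pools of the same class. Their summed level was 449.9 to 3979.8 CPM in small pools and 614 to 2703 in large pools. Of 15 members 0 were called, near the 0.813% called over all transcripts, and the median log2 fold change was 0.068. IFI6, a mitochondrial membrane protein induced by interferon, was at 2368 CPM in small replicate 6, 1041 in large replicate 5 and 472 in large replicate 1, whereas the lowest pool of each class held 37.7 and 58.4 CPM. ISG15, a ubiquitin-like modifier, was at 48.7, 73.3 and 44.7 CPM in these 3 pools. MX2, an antiviral GTPase, was at 61.0, 95.4 and 63.7 CPM in them and was listed at 0 in small replicates 1 and 3.

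Genes of cell division were highest in small replicate 3. Their summed level there was 1362 CPM, against 358 to 616 in the other small pools and 424 to 706 in large pools. TOP2A, a topoisomerase of dividing cells, was at 331 CPM in it and at most 151 in any other of the 12 pools. That pool also had the largest mitochondrial share (44.0%). Of 19 cell division genes 0 were called between classes, near the 0.813% called over all transcripts.

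Further called transcripts were picked after their values were seen. SCD, which introduces a double bond into fatty acids, was at 208 to 292 CPM in small pools (median 251) and 262 to 459 in large pools (median 401) (log2 fold change 0.60 ± 0.17 (SE; limma, p = 0.00223; exact permutation test, p = 0.00649)). ALAS1, which starts heme synthesis, was at 6.41 to 26.2 CPM in small pools (median 13.5) and 21.7 to 41.8 in large pools (median 29.3) (log2 fold change 1.02 ± 0.30 (SE; limma, p = 0.00273; exact permutation test, p = 0.00649)). ITGAV, an integrin alpha chain that binds matrix proteins, was at 347 to 627 CPM in small pools (median 511) and 520.3 to 957 in large pools (median 770.2) (log2 fold change 0.62 ± 0.19 (SE; limma, p = 0.00461; exact permutation test, p = 0.0152)). TNFRSF1A, a receptor for tumor necrosis factor, separated the classes in CPM but not with median-of-ratios scaling, at 28.9 to 35.8 CPM in small pools (median 33.2) and 39.0 to 75.6 in large pools (median 52.3) (log2 fold change 0.66 ± 0.20 (SE; limma, p = 0.00371; exact permutation test, p = 0.00216)). AK4, an adenylate kinase of mitochondria, was at 17.3 to 32.4 CPM in small pools (median 30.1) and 30.8 to 90.05 in large pools (median 48.1) (log2 fold change 0.82 ± 0.27 (SE; limma, p = 0.00705; exact permutation test, p = 0.0173)). Higher in small follicles was DNAJC19, a co-chaperone of mitochondrial protein import, at 42.9 to 64.0 CPM in small pools (median 51.4) and 26.2 to 56.0 in large pools (median 31.5) (log2 fold change -0.63 ± 0.22 (SE; limma, p = 0.00983; exact permutation test, p = 0.0130)). All 6 kept their direction with median-of-ratios scaling, as did all 67 and all 12 called transcripts, so this does not set them apart. AK4 was no longer called with that scaling or in edgeR's quasi-likelihood test. Among all calls, 38 of the 67 and all 12 were kept with median-of-ratios scaling. Fits that left out 1 pool are not given for these 6.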
